A study of Mus musculus with 11 samples.

Results

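The promoters of 10 corepressor genes (Sin3a, Sin3b, Hdac1, Hdac2, Hdac3, Rcor1, Rcor2, Kdm1a, Rest and Trim28) were examined for reads of the transcription factor ST18. They were picked by gene symbol from the 21881 promoter windows of the deposited table, and all 10 were present, with 1 window each. ST18 libraries came from mouse cells that the labels call TN and describe as brain cells, with in vitro chromatin immunoprecipitation (ChIP) against an HA tag, and are labelled as 2 samples. The reference was 1 library of input genomic DNA from TN cells, whose molecule label also reads HA ChIP while its title says input. How the tagged ST18 was made and which cells TN stands for is not given in the sources used here, and reads at promoters do not measure expression, so markers could not be used to check the cell type. The series also holds RNA from 4 ST18 knockdown and 4 non-targeting control samples of mouse cortex electroporated and collected before birth, which were not analysed here.

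ST18 belongs with MYT1 and MYT1L to a small family of zinc finger factors of the nervous system, and members of that family are known to act with Sin3 proteins, histone deacetylases and the demethylase Lsd1. Sin3 and CoREST complexes do not bind DNA by sequence. Their scaffolds are brought to a gene by a DNA-binding factor such as Rest, and their enzymes then remove acetyl groups from histone tails or methyl groups from lysine 4 of histone H3. The data show where ST18 reads lay at the genes that encode these proteins, not whether the proteins met ST18.

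The table holds 1 ST18 column with 438960 reads in all and 1 input column with 160443 reads, so no value has a replicate. Windows held a median of 20 ST18 reads (interquartile range 14 to 26) and of 7 input reads (5 to 10), each over 1000 bases. Enrichment is given on a log2 scale, as the log2 of scaled ST18 reads plus 16 over input reads plus 16. The pseudocount of 16 is larger than most input counts and draws these values towards 0. A fold without a pseudocount is given beside it: the ST18 to input ratio of a window over the same ratio summed over all promoters. The log2 values multiply ST18 reads by 0.4055 and this fold in effect by 0.3655, so a log2 value of 0 is not 1-fold. Each fold has an exact (Clopper-Pearson) 95% interval. Such an interval covers counting error only, since with 1 column each the spread between libraries is not measured. Without molecular identifiers, copies of 1 molecule may count as several reads, which would make the interval too narrow. Where the reads of several genes are summed, it also leaves out the spread between those genes.

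The promoter sequences of the windows that lay farthest apart are shown first, so that they can be set beside their reads. These are the 250 bases before the start of Trim28 and Hdac2, the highest windows of the 10, and of Sin3b, the lowest, from RefSeq on build GRCm38.p6. The reads were aligned to mm9, per the submitters' processing notes, and the sources used here do not say where in relation to the start a window lies, so a printed stretch may cover only part of one. Capitals mark the letters AAGTT on either strand (AACTT where they lie on the opposite strand), the core known for the MYT1 family.
Trim28 (chr7:13023902-13024151, + strand): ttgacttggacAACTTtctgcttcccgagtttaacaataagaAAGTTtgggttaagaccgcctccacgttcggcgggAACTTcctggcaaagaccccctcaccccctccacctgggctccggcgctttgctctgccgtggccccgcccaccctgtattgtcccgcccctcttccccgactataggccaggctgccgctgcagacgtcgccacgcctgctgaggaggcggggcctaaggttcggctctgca
Hdac2 (chr10:36974294-36974543, + strand): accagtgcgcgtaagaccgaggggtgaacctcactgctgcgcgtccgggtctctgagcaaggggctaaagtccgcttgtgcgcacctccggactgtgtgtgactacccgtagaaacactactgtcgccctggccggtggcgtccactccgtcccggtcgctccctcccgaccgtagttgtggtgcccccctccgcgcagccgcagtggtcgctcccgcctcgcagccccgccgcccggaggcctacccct
Sin3b (chr8:72723020-72723269, + strand): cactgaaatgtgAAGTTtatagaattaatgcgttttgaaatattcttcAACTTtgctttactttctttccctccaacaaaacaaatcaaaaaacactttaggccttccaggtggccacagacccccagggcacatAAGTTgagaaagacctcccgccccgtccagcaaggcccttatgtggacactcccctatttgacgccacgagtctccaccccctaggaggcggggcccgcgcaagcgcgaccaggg
Trim28 and Sin3b each held 3 matches and Hdac2 held 0. The matches began 239, 208 and 173 bases before the start in Trim28, and 238, 202 and 115 bases before it in Sin3b. Of all RefSeq promoters, 35.3% held a match in these 250 bases and 1.89% held 3 or more. Whether matches bear on the reads of these genes was not tested.

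Trim28 encodes a corepressor that KRAB zinc finger proteins bring to DNA and that silences retroelements. Its window held 36 ST18 reads against 3 input reads and stood at 0.69 on the log2 scale. Set against all promoters, its ratio was 4.39-fold (exact 95% interval 1.39 to 22.3), and this was the only interval of the 10 that excluded 1. At the ratio of all promoters, 3 input reads would stand beside 8.21 ST18 reads. Trim28 ranked 81 among the 21881 windows, but it did not pass adjustment over all of them (exact binomial test, p = 0.00593, Benjamini-Hochberg adjusted p = 0.591). The test compares the reads of both columns, not conditions. With only 3 input reads, 1 read more or less moves this fold a great deal, which the width of its interval shows.

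Hdac1 and Hdac2 are class I deacetylases that sit in the Sin3, CoREST and NuRD complexes. Hdac2 held 39 ST18 reads against 6 input reads, the most ST18 reads of the 10, at 0.53 on the log2 scale and a 2.38-fold ratio (0.999 to 6.87). Hdac1 held 22 ST18 reads against 7 input reads, at 0.12 and 1.15-fold (0.474 to 3.18), and lay within the interquartile range of all windows. Hdac3, the deacetylase of the NCoR and SMRT complexes, held 25 ST18 reads against 14 input reads, at −0.20 and 0.653-fold (0.326 to 1.36). All 3 intervals included 1, that of Hdac2 only just. The starts of Gm31649 and Gm10658, which lie within 1000 bases of those of Trim28 and Sin3a, were not analysed here.

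The Sin3 scaffolds both lay below 0. Sin3a held 18 ST18 reads against 9 input reads, at −0.10 and 0.731-fold (0.312 to 1.85). Sin3b, also with 18 ST18 reads, had 14 input reads, at −0.36 and 0.470-fold (0.221 to 1.02), and 3.45% of all windows lay at or below it. Equal ST18 reads thus stood on unequal input reads, and the interval of neither scaffold excluded 1.

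Rcor1, the founding CoREST scaffold, held 22 ST18 reads against 5 input reads, at 0.25 and 1.61-fold (0.594 to 5.44). Rcor2, a scaffold of neural progenitors, held 19 ST18 reads against 3 input reads, at 0.32 and 2.31-fold (0.681 to 12.2). Kdm1a, which encodes the demethylase Lsd1 that both scaffolds hold, had 25 ST18 reads against 13 input reads, at −0.15 and 0.703-fold (0.346 to 1.50). Rest, the zinc finger repressor that brings CoREST and Sin3 to neuronal genes in cells other than neurons, had 24 ST18 reads against 12 input reads, at −0.12 and 0.731-fold (0.352 to 1.60). None of these intervals excluded 1. At Rcor2, with only 3 input reads, a 2.31-fold ratio was not told apart from 1.

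**Figure D1:**
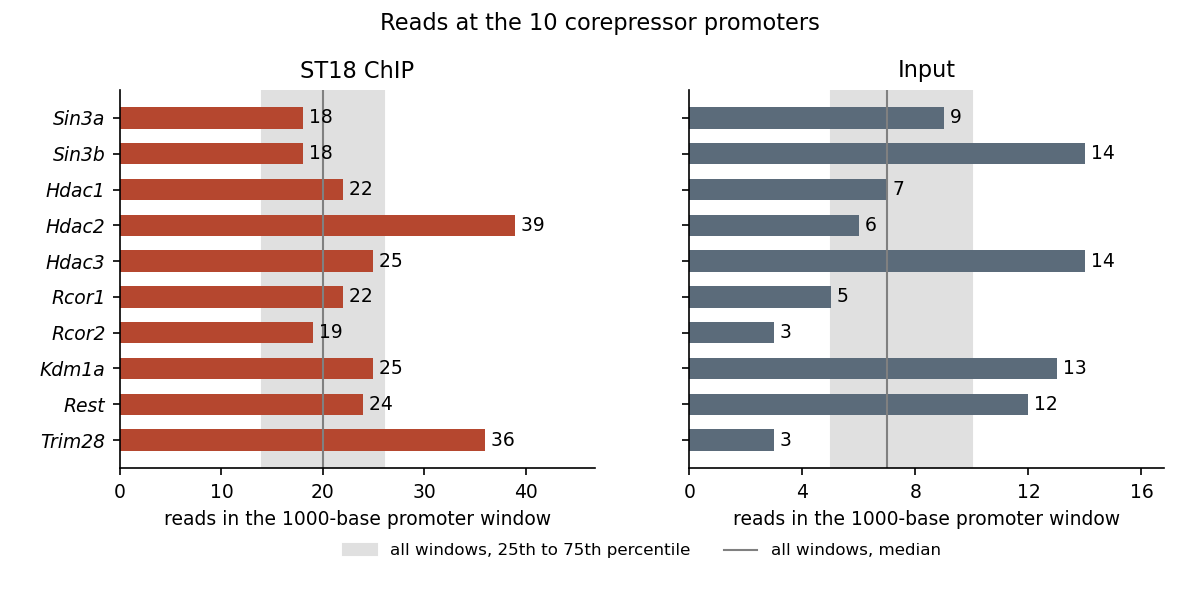
Reads per 1000-base window in the ST18 ChIP column (left) and the input column (right) for the 10 corepressor promoters, 1 library column each. Bars start at 0, and the grey band and line give the interquartile range and median of all 21881 windows; 8 of the 10 genes lie between 18 and 25 ST18 reads, with Trim28 at 36 and Hdac2 at 39, while input reads run from 3 to 14.

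**Figure D2:**
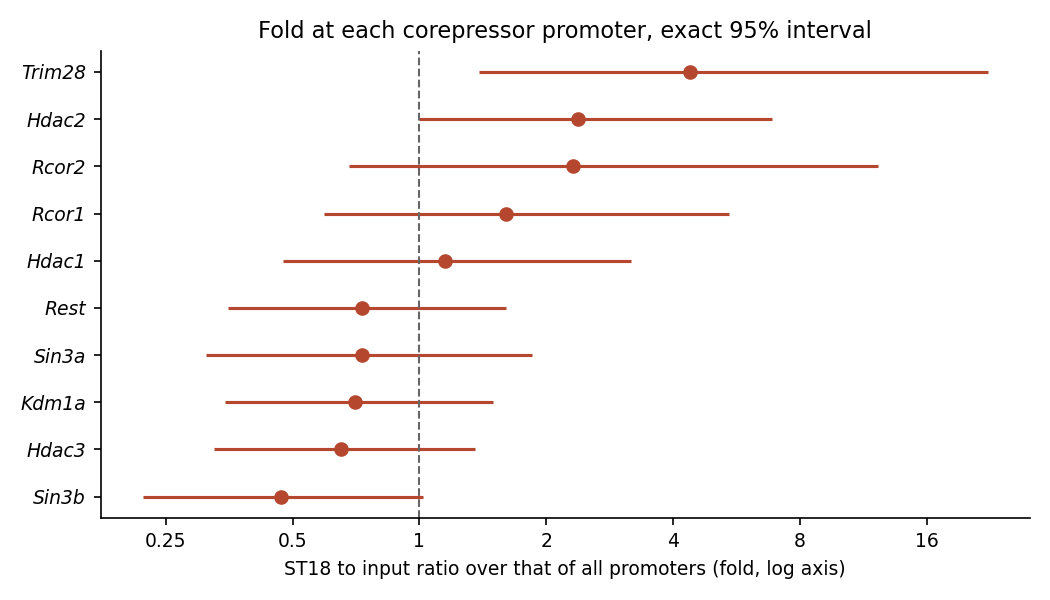
Fold of each window's ST18 to input ratio over that of all promoters (log axis), sorted by fold, with the exact 95% interval as a line and 1 dashed. The Trim28 interval, 1.39 to 22.3, lies above 1 and the other 9 include 1.

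Counted together, Trim28 was the 1 gene of 10 at a log2 value of 0.58 or more, where 1.15% of all windows did. No window of the 10 lay at −0.58 or lower, where 0.219% of all windows did, and none reached 1, where 0.0548% did. The exact test called 0 of the 10 at an adjusted p of 0.05 in either direction, where 0.0366% of all windows were called higher and 0.00914% lower. At an unadjusted p of 0.05 it called 1 higher, Trim28, and 0 lower, where 2.37% and 3.24% of all windows were called. With 10 windows, a single one past a threshold is a small count to set beside these shares. The median log2 enrichment of the 10 was 0.01, against 0.04 over all windows, and 5 of the 10 lay above that median. In all, the 10 windows held 248 ST18 reads against 86 input reads, 1.05-fold the ratio of all promoters (0.822 to 1.36). Without Trim28 the other 9 held 212 against 83 reads, at 0.934-fold (0.721 to 1.22).

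Although their sum lay near the ratio of all promoters, the 10 windows were spread out. The interquartile range of all windows ran from −0.10 to 0.19, and of the 10 only Hdac1 lay inside it. ST18 reads differed by 2.17-fold between the lowest and the highest of the 10, and input reads by 4.67-fold. The 5 genes above 0 (Trim28, Hdac2, Rcor2, Rcor1 and Hdac1) had 3 to 7 input reads and 19 to 39 ST18 reads. The 5 below 0 (Sin3a, Rest, Kdm1a, Hdac3 and Sin3b) had 9 to 14 input reads and 18 to 25 ST18 reads. How input reads divide above and below 0 over all windows was not counted, so this split is not a trait of the 10. Since input reads enter the log2 enrichment themselves, a low input count raises it by construction.

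Each window was therefore also set beside all windows with its own number of input reads, as a description. Among the 1107 windows with 3 input reads, the median was 14 ST18 reads (interquartile range 9 to 21), and 1.63% held at least the 36 of Trim28. Rcor2, with the same input count, had 19 ST18 reads and lay inside that range. Among the 2450 windows with 6 input reads the median was 20 ST18 reads (15 to 26), and 2.0% held at least the 39 of Hdac2. Both genes thus stood high among windows with their own input count. Among the 420 windows with 14 input reads the median was 24 (19 to 28). Hdac3, at 25, lay at that middle, while Sin3b, at 18, lay just below the range. Rest, Kdm1a, Hdac1, Rcor1 and Sin3a also lay within the interquartile range of their own input count. Windows with 14 input reads had a median log2 enrichment of −0.22 and those with 3 a median of 0.19. The part of the input counts in the order of the 10 genes was not tested.

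**Figure D3:**
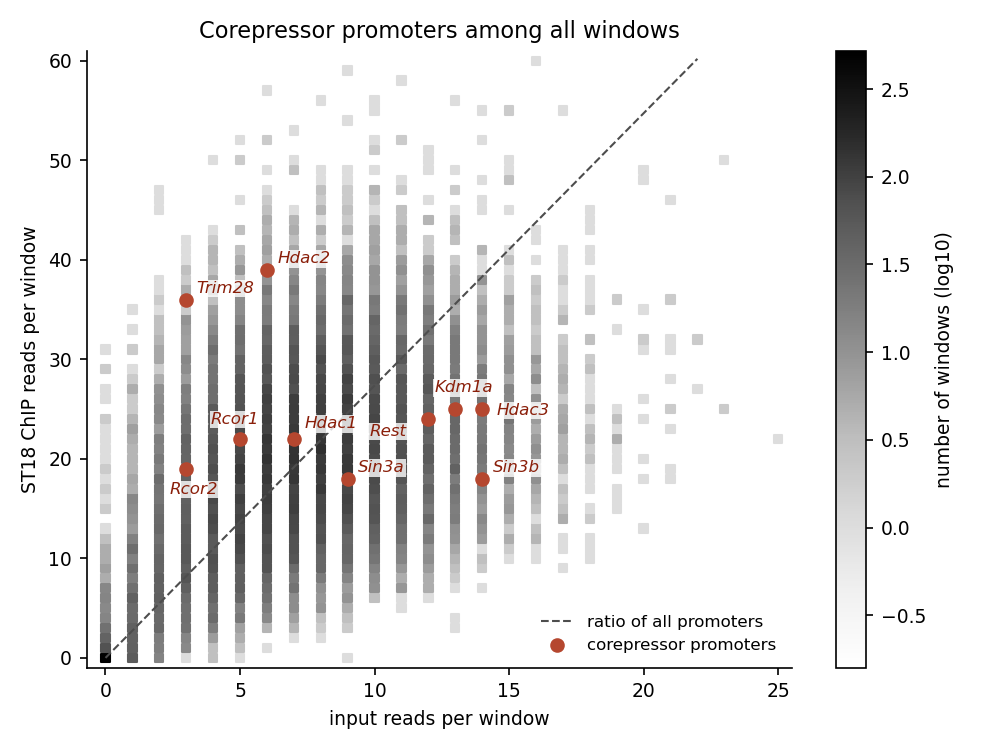
ST18 ChIP reads against input reads per window, with grey squares shaded by the number of windows (log10) and the 10 corepressor promoters in red; 35 windows beyond 60 ST18 or 25 input reads are not drawn. The dashed line is the ratio of all promoters, and Trim28 and Hdac2 lie near the top of their columns, while Sin3b lies below the middle of its column.

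Paralogs were compared next, in 5 pairs that follow from the gene names, by the ratio of their ST18 to input ratios with an exact conditional 95% interval and no adjustment for 5 pairs. The Hdac2 ratio was 3.58 times that of Hdac3 (1.11 to 13.0), the only 1 of the 5 intervals that excluded 1. Hdac1 stood at 0.489 times Hdac2 (0.119 to 1.94) and at 1.75 times Hdac3 (0.539 to 6.10). Sin3a stood at 1.54 times Sin3b (0.477 to 5.19) and Rcor1 at 0.700 times Rcor2 (0.0959 to 4.16). The other 4 intervals allow several-fold differences, so these reads neither separate those paralogs nor show them alike.

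The other subunits of the same complexes were then counted, with each gene in every complex it belongs to. Over the 69 genes of all lists the median log2 enrichment was −0.01, against 0.04 over all windows, and 31 lay above the median of all windows. The 59 genes outside the 10 held 1273 ST18 reads against 525 input reads in all, 0.886-fold the ratio of all promoters (0.800 to 0.983). They had a median of 9 input reads, against 7 over all windows. The interval leaves out the spread between the 59 genes, from −0.51 to 0.44 on the log2 scale. List intervals were not adjusted for the number of lists. Of all 69 genes, none was called at an adjusted p of 0.05 by the exact test. At an unadjusted p of 0.05, 1 of the 69 was higher (Trim28, 1.45%) and 5 were lower (7.25%), where 2.37% and 3.24% of all windows were. All 5 lower genes lay outside the 10 and made up 8.47% of the 59.

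The Sin3 complex held 3 of those 5, 15.8% of its 19 windows, where 3.24% of all windows were called lower at this unadjusted p. That is a small count, in a list chosen with earlier results of these data known, and 0 of the 19 passed adjustment. Arid4a, a chromatin-binding subunit, had 16 ST18 reads against 16 input reads, at −0.51 and 0.366-fold (0.171 to 0.781; exact test, adjusted p = 0.635). Sap18, a Sin3-associated protein, had 18 ST18 reads against 17 input reads, at −0.50 and 0.387-fold (0.188 to 0.799). Suds3, which helps to hold the deacetylases in the complex, had 21 ST18 reads against 16 input reads, at −0.38 and 0.480-fold (0.239 to 0.983). With Sin3b at −0.36, these were the lowest windows of the 19 in that list. All 4 had 14 or more input reads against a median of 9 in the list. A high input count lowers the log2 enrichment by construction, and windows with 14 input reads had a median of −0.22. Arid4a, Sap18 and Suds3 were not set beside windows with their own input count. Without the 10, the 15 other Sin3 subunits held 326 ST18 reads against 148 input reads, at 0.805-fold (0.661 to 0.984). That interval, too, leaves out the spread between genes and is not adjusted for the number of lists. The list's median was −0.03, with 8 of 19 above the median of all windows. Its highest window after Hdac2 was that of Ing2, a reader of methylated histone H3, with 29 ST18 reads against 5 input reads, at 0.40.

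The CoREST and LSD1 list had a median of 0.07, with 10 of 19 windows above the median of all. After Hdac2, its highest window was that of Ehmt1, a histone H3 lysine 9 methyltransferase, with 47 ST18 reads against 11 input reads, at 0.38. Its lowest was Ctbp2, a corepressor that joins Lsd1 complexes, with 17 ST18 reads against 14 input reads, at −0.39 and 0.444-fold (0.206 to 0.973; exact test, adjusted p = 0.854). The third CoREST scaffold, Rcor3, had 21 ST18 reads against 8 input reads, at 0.03, below Rcor1 and Rcor2. Kdm1b, the paralog of Kdm1a, had 21 ST18 reads against 11 input reads and lay close to it at −0.14.

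Of the 11 classical deacetylase genes, 5 lay above the median of all windows, and the list median was −0.01. Hdac2 was the highest, and the next was Hdac4, a class II enzyme, with 26 ST18 reads against 7 input reads, at 0.21. Hdac7 was the lowest, with 23 ST18 reads against 15 input reads, at −0.29. Hdac8 had 2 ST18 reads against 1 input read, too few to place it.

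In the NCoR and SMRT list the 6 windows lay between −0.20 (Hdac3) and 0.23 (Ncor1, with 36 ST18 reads against 10 input reads), and none was past a threshold. In the NuRD list, with a median of 0.05 over 15 windows, Cdk2ap1, one of its small subunits, was the lowest, with 10 ST18 reads against 10 input reads, at −0.37 (exact test, adjusted p = 0.869). The nucleosome remodellers of NuRD had 25 ST18 against 5 input reads for Chd5, the form of neurons, at 0.32, 13 against 2 for Chd3 at 0.24 and 22 against 8 for Chd4 at 0.05, and differences between them were not tested. Among the partners of Trim28, Cbx3 (heterochromatin protein 1 gamma) had 41 ST18 reads against 8 input reads, at 0.44 and 1.87-fold. Its paralogs lay lower, with Cbx1 at −0.08 (28 against 13 reads) and Cbx5 at −0.18 (26 against 14 reads), and differences between the Cbx genes were not tested. Setdb1, the methyltransferase that Trim28 recruits, had 6 ST18 reads against 3 input reads. Without Trim28 that list had 2 of 7 windows above the median of all.

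**Figure D4:**
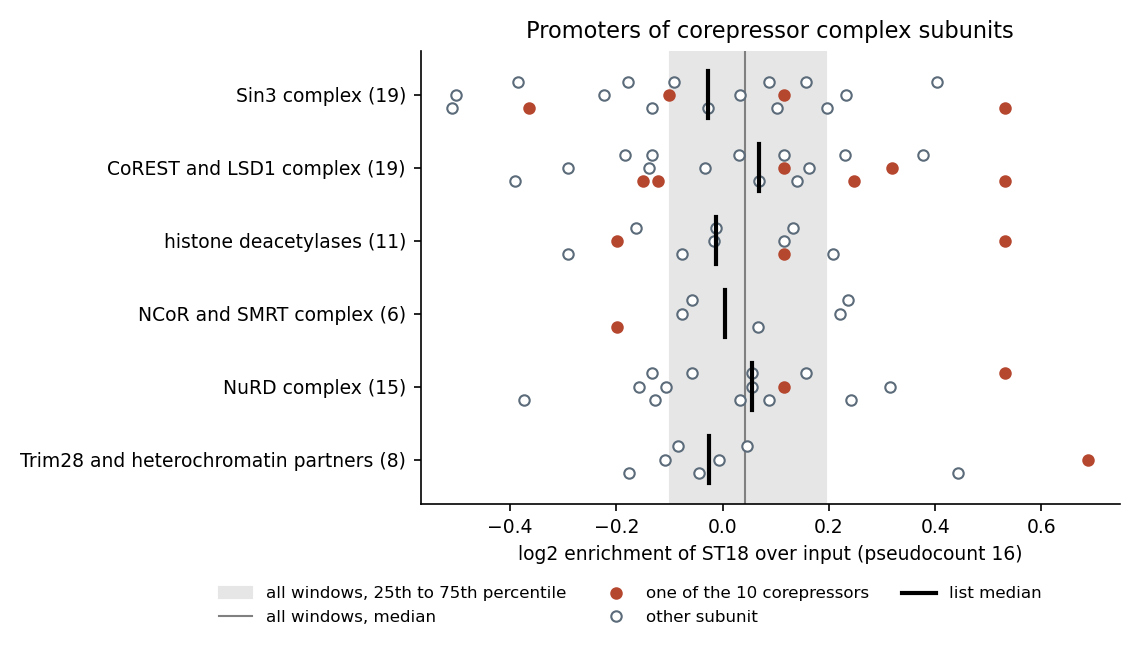
Log2 enrichment of ST18 over input (pseudocount 16) at promoters of 6 groups of corepressor subunits, with the number of genes in brackets; filled points are the 10 corepressors, open points the other subunits and black bars the list medians, and a gene stands in each group it belongs to. List medians lie between −0.03 and 0.07, inside the grey interquartile range of all windows, −0.10 to 0.19.

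Promoter sequences were at hand for 7 of the 10 genes, with 2 starts for Sin3a. Over the 250 bases before the start, G and C made up 70.4% in Rcor1, 68.8% in Hdac2, 67.6% in Rcor2, 62.0% in Trim28 and 59.2% in Kdm1a. It was 50.8% in Sin3b, and 50.8% and 61.6% at the starts of Sin3a, against a median of 52.4% over 32851 RefSeq promoters. Of these 7 genes, the 4 above 0 had at least 62.0% G and C, and the 3 below 0 had less at each start. The gap was narrow, with 62.0% in Trim28 against 61.6% at 1 start of Sin3a. Of all RefSeq promoters, 76.7% held 61.6% or less. Hdac1, above 0, and Hdac3 and Rest, below 0, had no sequence. Over the 12270 windows with a single RefSeq promoter, enrichment was summarised by base composition. Windows lowest in G and C, up to 44.4% (quintile 1 of 5), had a median log2 enrichment of 0.00 with a median of 12 ST18 and 5 input reads. The quintile that holds Trim28, from 59.2% to 66.0%, had a median of 0.08 with 23 ST18 and 8 input reads. The highest quintile had a median of 0.07. With reads summed and no pseudocount, these 3 quintiles stood at 0.883-fold, 1.05-fold and 1.06-fold the ratio of all promoters. The part of base composition in the values of the 10 genes was not tested.

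**Figure D5:**
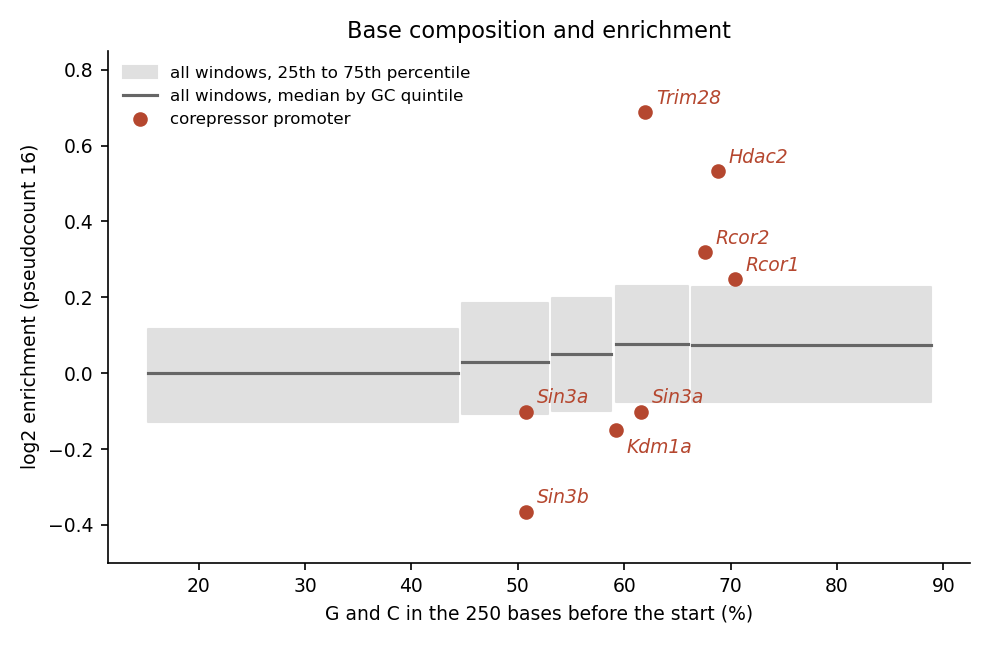
Log2 enrichment (pseudocount 16) against the percentage of G and C in the 250 bases before the start for 7 corepressor genes, with both starts of Sin3a. Grey boxes and lines give the interquartile range and median of all windows in each quintile of G and C content; Trim28, Hdac2, Rcor2 and Rcor1 lie above the boxes and Sin3b, Kdm1a and one start of Sin3a below them, while the other start of Sin3a lies just inside its box.

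The letters AAGTT were searched on both strands of the same 250 bases. They stood in 35.3% of all RefSeq promoters, and 3 or more matches, as in Trim28 and Sin3b, in 1.89%. Hdac2, Rcor1, Rcor2, Kdm1a and both starts of Sin3a held 0. The longer AAAGTTT, which contains AAGTT, stood once in Trim28 and in 4.20% of all promoters, and Sin3b held 0. Over all windows with a single promoter, those with AAGTT had a median log2 enrichment of 0.03 and those without it 0.05, and G and C content differed between them as well, with medians of 50.0% and 58.8%. A match describes the letters only and marks no binding site.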

How the data were processed

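The authors deposited whole-number read counts of 1 ST18 ChIP column and 1 input column per promoter window, and a log2 enrichment made from them. Whether the ST18 column holds 1 or both ChIP samples is not stated. The submitters' processing notes name Bowtie, MACS2 2.0.10.20120913, TopHat2 2.0.8, HTSeq 0.5.4p1, edgeR and mm9, with no role. How duplicate reads were treated is not stated. The log2 values in the deposited table were recomputed as log2((0.4055 × ST18 + 16) / (input + 16)), within 1e-06 in all 21881 windows. The factor 0.4055 was solved from those deposited values. The deposited peak list was not used, since no mm9 annotation was at hand.

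Each window was tested against the ratio of all promoters by an exact two-sided binomial test (the smaller tail doubled), with Benjamini-Hochberg adjustment over all windows (Python 3.11.15, scipy 1.17.1). The code of the test was checked on counts simulated from the binomial model that the test assumes. That check does not show whether the model holds for these reads. Scaling factors came from edgeR 4.0.16 and DESeq2 1.42.0. Nothing was filtered out. Depth was 438960 ST18 and 160443 input reads. Without replicates, edgeR's test was not run. Genes named are the 10 members, the highest and lowest window of each complex list and those past a threshold. Ing2, Rcor3, Kdm1b, Hdac4, Hdac8, Ehmt1, Chd3, Chd4, Chd5, Cbx1, Cbx3 and Setdb1 were named after their values were seen, as paralogs, partners or next highest windows. The 10 genes and all lists were chosen with earlier results of these data known.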

Additional observations from a re-analysis of the deposited data

How the results depend on the processing

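The count of members at a log2 enrichment of 0.58 or more, 1 of 10, became 0 at a threshold of 1, 0 without windows of 5 or fewer input reads, which removes Trim28, Rcor1 and Rcor2, and 0 without Trim28. It became 2 with a pseudocount of 8, where 6.98% of all windows passed, and 4 with a pseudocount of 1, where 24.1% did. The count at −0.58 or lower, 0 of 10, became 1 with a pseudocount of 1 (13.1% of all windows). It stayed 1 and 0 with promoter totals, median centring and edgeR's TMM scaling. The exact test called 0 of 10 in each direction, 1 higher at an unadjusted p of 0.05, and 2 higher (Trim28 and Hdac2) and 1 lower (Sin3b) when that p was summed over all outcomes no likelier than the observed one, where 2.49% and 4.39% of all windows were called. That p and the settings without Trim28 were chosen after seeing the data. With TMM scaling and without windows of 5 or fewer input reads the adjusted calls stayed 0. Of 50 recomputed log2 values, 44 stayed inside the exact 95% interval of the value reported, and the other 6 were farther from 0 with a smaller pseudocount, as that setting is built. The 20 folds under edgeR or DESeq2 scaling took a constant factor close to 1 and kept their order. The share of windows above the median of all stayed inside its exact 95% binomial interval in all 12 recomputed list values, which is wide for lists of 6 to 19 genes, as in the Trim28 partner list, where 37.5% became 20% under the input filter. Input reads of 3 to 14 per window limit every fold. No paired analysis was possible because the ST18 column carries no replicate number, and leaving out a replicate could not be run.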
